A study of Arabidopsis thaliana with 12 samples.

Results

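The departure of the sco3phyb double mutant from the sum of its single mutants was followed across all 12 arrays of the study and 22746 probe sets, out of 22810 on the array. The remaining 64 are control probe sets. For each probe set the difference sco3phyb minus phyb was compared with the difference sco3 minus Col-0 on the log2 scale. This difference of differences, called the interaction here, is 0 where the effects of the mutations add up. It is above 0 where sco3phyb lies higher than that sum and below 0 where it lies lower.

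The samples were whole Arabidopsis seedlings of 4 genotypes. Col-0 served as the reference, sco3 and phyb carry 1 mutation each, sco3phyb carries both, and each genotype had 3 labelled biological replicates. All were 4 days old and had grown on agar medium with 16 h of light and 8 h of dark per day. The labels name no allele of either mutant, and they describe Col-0 only as the control. Levels are log2 signals as the authors deposited them, so a difference of 1 is a 2-fold difference, and levels were compared between genotypes but never between probe sets. No probe set was annotated to SCO3 or PHYB, and their transcripts were not analysed here.

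Phytochrome B is a receptor of red and far-red light that restrains stem elongation and promotes leaf and chloroplast development in open light. Plants that lack it grow as if shaded, with raised activity of growth genes. SCO3, SNOWY COTYLEDON 3, is required for chloroplasts to form normally in the cotyledons, the seed leaves. When 2 mutations act on separate processes their effects tend to add on a log scale, and an interaction marks the genes whose response to the loss of one gene depends on whether the other is intact.

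The interaction was called for 1143 probe sets, which is 5.03% of those tested (limma, adjusted p under 0.05). Of these, 602 lay above 0 (2.65%) and 541 below 0 (2.38%), and 613 were at least 2-fold (2.69%). Their median size was 1.03 on the log2 scale against 0.21 over all probe sets, and 594 of them carried a gene name. At an unadjusted p under 0.05 there were 4421. The p-values measure the spread among the labelled replicates, pooled over the genotypes. The sign was the same on the linear scale for 1138 of the 1143 and turned for 5. Calls rose with signal, from 0.242% of the dimmest 20% of probe sets to 8.93% of the brightest 20%.

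Which probe sets passed depended on single arrays. The median standard error of the interaction was 0.20, against 0.14 for a difference of 2 genotypes. Leaving out 1 array in turn gave between 661 and 1582 calls. The count was 1582 without Col-0 replicate 3, which stood apart from its group (mean correlation across probe sets of 0.978, against 0.986 for the other Col-0 arrays). It was 661, 761, 716 and 755 without phyb replicate 3, phyb replicate 2, sco3phyb replicate 3 and sco3phyb replicate 2. In all 12 of these fits and in the fit of all arrays, 571 probe sets were called (2.51% of those tested), 312 above 0 and 259 below. The genes named for their size or for their genotype come from this smaller group.

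**Figure D1:**
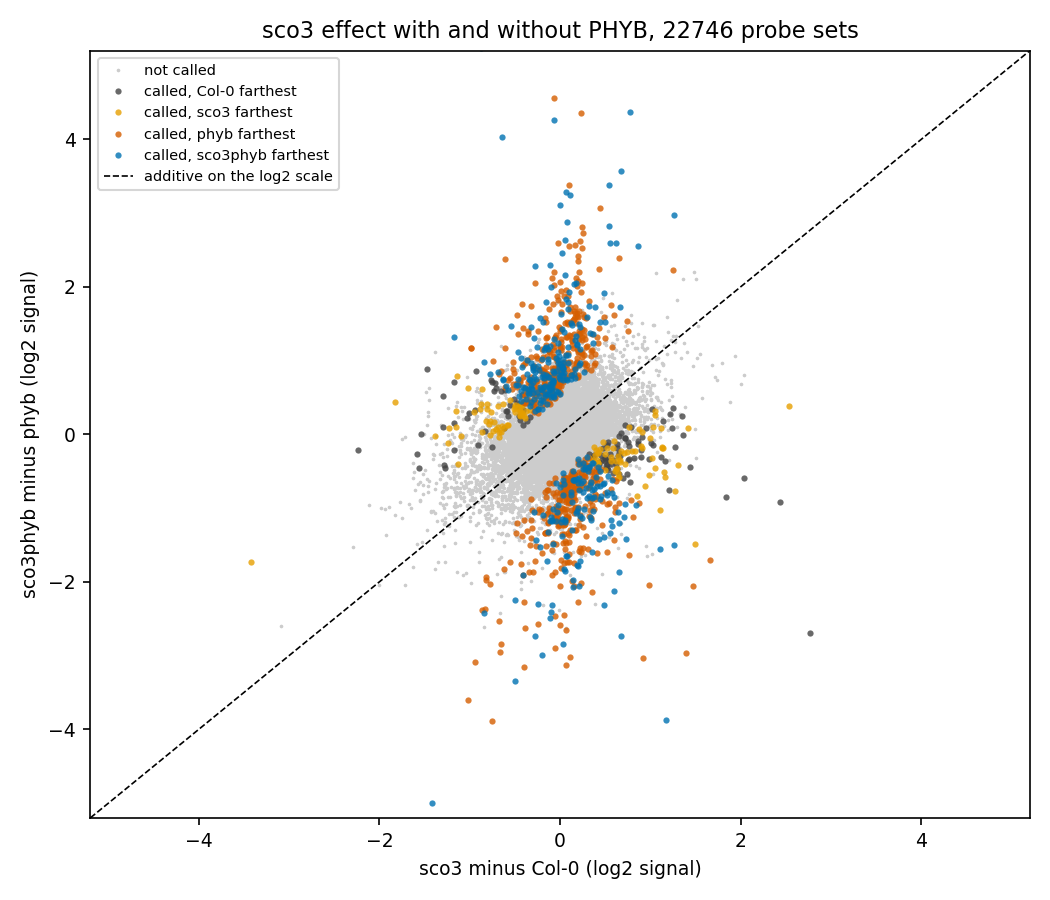
Difference between sco3phyb and phyb (vertical axis, log2 signal) against that between sco3 and Col-0 (horizontal axis, log2 signal) for 22746 probe sets, with the called ones coloured by the genotype farthest from the other 3 and the dashed line marking additive effects; 1 point lies outside the axes. Where phyb was farthest, the median size of the called probe sets was 0.98 on the vertical axis and 0.18 on the horizontal one.

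The phyb single mutant was the genotype that most often stood apart. Among the 1143, the mean of phyb lay farthest from the other 3 genotypes in 599 probe sets (52.4%), that of sco3phyb in 318 (27.8%), that of sco3 in 117 (10.2%) and that of Col-0 in 109 (9.54%). Over all probe sets tested the shares were 32.4%, 19.9%, 26.9% and 20.7%. In 430, 226, 63 and 58 of them the other 3 genotypes lay close together, the distance being over 3 times the SD of their means. In the 571 called in every fit the counts were 311, 178, 45 and 37.

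A stricter division used 4 pairwise calls of the same fit: sco3 against Col-0 (4.97% of probe sets called), phyb against Col-0 (33.4%), sco3phyb against phyb (14.9%) and sco3phyb against sco3 (29.3%). A genotype stood apart where it differed from both neighbours and the other 2 calls were absent. By this rule phyb stood apart in 357 probe sets (31.2%), sco3phyb in 208 (18.2%), sco3 in 59 (5.16%) and Col-0 in 52 (4.55%), and 467 were mixed (40.9%). The same rule over all probe sets tested gave 4.59%, 2.39%, 0.967%, 0.98% and 91.1%. Of the mixed ones, 306 had phyb different from Col-0 and sco3phyb different from both single mutants. Both rules read the same 4 means, so nothing is read from their giving the same order of genotypes. The classes by calls also depend on how often each pairwise comparison was called.

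**Figure D2:**
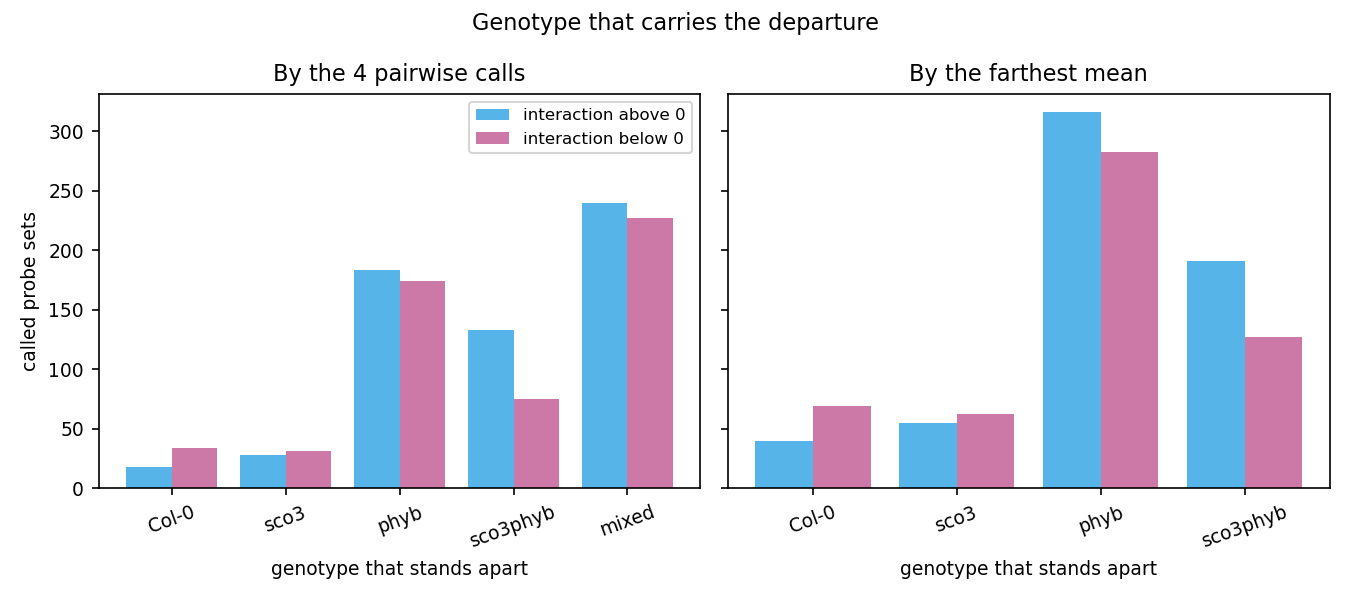
Number of called probe sets (vertical axis) by the genotype that stands apart, from the 4 pairwise calls (left) and from the mean farthest from the other 3 (right), with interactions above and below 0 as separate bars. The bars for phyb hold 357 probe sets on the left and 599 on the right, those for sco3phyb 208 and 318.

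Set against the sum of the single mutants, the change of sco3phyb from Col-0 was smaller in 568 of the 1143 (49.7%), opposite in sign in 458 (40.1%) and larger in 117 (10.2%). These directions and the farthest genotype come from the same 4 means, so nothing is read from how they go together. Where sco3phyb stood farthest, the summed change of the single mutants was often close to 0, so its sign carried little weight: the median sizes of the differences from Col-0 were 0.21 in sco3 and 0.27 in phyb, against 1.11 for sco3phyb minus sco3.

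The 599 probe sets with phyb farthest were chosen by the same 4 means as the values that follow, which are therefore given as a description. The sco3phyb mean had moved from the phyb mean back towards Col-0 by a median of 78.9% of the phyb change (quartiles 59.4% and 105.4%), and it lay at or beyond the Col-0 mean in 170. The phyb mean enters both sides of this ratio. The return was 76.7% for the 283 probe sets that were high in phyb and 81.1% for the 316 that were low there. sco3 itself differed from Col-0 in 16 of the 599, a comparison that called 4.97% of all probe sets. Choosing probe sets with phyb farthest favours a sco3 mean near Col-0, so nothing is read from that count. sco3phyb still differed from Col-0 in 273, a comparison that called 29.7% of all probe sets.

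The clearest of these was AT3G55920, on chromosome 3 (20743443 to 20745153, TAIR10.1). It read 6.51, 6.36 and 6.62 in Col-0, 6.56, 6.32 and 6.39 in sco3, 1.95, 2.04 and 1.97 in phyb, and 6.48, 6.42 and 6.73 in sco3phyb (log2 signal). The 3 phyb arrays lay under 2.62, the lowest of the lower quartiles of the 12 arrays, and the other 9 overlapped each other. The interaction was 4.63 ± 0.16 (limma, standard error, adjusted p = 1.99e-08). For means as low as this, here and in the genes that follow, the size is that of the deposited signals, because how far they lie above background is not known. AT1G33055 was lowest in phyb as well. It fell by 3.22 in phyb on the log2 scale, to 4.68 ± 0.08, and stood at 7.06 ± 0.10 in sco3phyb (SD, n = 3), below all arrays of Col-0 and sco3 (interaction 2.99 ± 0.26, adjusted p = 4.84e-05).

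UGT73B1 (AT4G34138, chromosome 4, 16347997 to 16350203) encodes a glucosyltransferase, one of a large family of enzymes that attach sugars to small molecules. It read 6.50, 6.54 and 6.79 in Col-0, 6.56, 6.91 and 7.13 in sco3, 3.80, 4.45 and 4.23 in phyb, and 6.67, 7.19 and 6.82 in sco3phyb. Only the phyb arrays were low, and the ranges of the other 3 genotypes overlapped (interaction 2.48 ± 0.27, adjusted p = 2.72e-04). AT4G01870 went further. It was 6.91 ± 0.12 in Col-0, 7.01 ± 0.10 in sco3 and 4.75 ± 0.44 in phyb, and in sco3phyb it reached 8.13 ± 0.14, above all Col-0 arrays (SD, n = 3; interaction 3.28 ± 0.25, adjusted p = 2.07e-05).

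Both called genes of leucine breakdown were low in phyb and partly back in sco3phyb. IVD (AT3G45300, chromosome 3, 16621452 to 16625043), the isovaleryl-CoA dehydrogenase, read 8.57, 8.78 and 9.20 in Col-0, 8.56, 8.85 and 9.04 in sco3, 6.40, 6.50 and 6.24 in phyb, and 8.24, 8.33 and 8.21 in sco3phyb. The sco3phyb values lay below all Col-0 values and above all phyb values. MCCA (AT1G03090), whose product is part of methylcrotonyl-CoA carboxylase, the enzyme of the next step, read 10.47, 10.93 and 11.01 in Col-0, 10.67, 10.88 and 11.08 in sco3, 7.22, 6.73 and 6.40 in phyb, and 8.60, 8.81 and 8.80 in sco3phyb. In MCCA about as much of the phyb change was left as was lost, and sco3phyb overlapped with no other genotype. The interactions were 1.91 ± 0.23 for IVD and 1.88 ± 0.28 for MCCA (adjusted p from 4.95e-04 to 0.00212). MCCB, which encodes the partner subunit, had an interaction of 0.25 ± 0.22 and AT2G26800 one of 0.22 ± 0.19, neither called. Of the 4 measured genes of the list, 2 were thus called above 0 and 0 below, and all 4 interactions were above 0. The median was 1.07 against 0.01 over all probe sets. In all 4, called or not, phyb was the farthest genotype, as it was in 32.4% of all probe sets.

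Smaller departures of this kind were those of 2 autophagy genes. ATG8E (AT2G45170) and ATG8F (AT4G16520) encode ubiquitin-like proteins that are attached to the membranes of forming autophagosomes. ATG8E read 9.58, 9.61 and 9.66 in Col-0, 9.42, 9.45 and 9.35 in sco3, 7.55, 7.35 and 6.85 in phyb, and 8.12, 8.14 and 8.16 in sco3phyb. ATG8F was 10.66 ± 0.10, 10.45 ± 0.09, 8.93 ± 0.20 and 9.53 ± 0.15 in the same order (SD, n = 3). For both, sco3phyb lay between phyb and Col-0 and overlapped with neither, with interactions of 1.1 ± 0.21 and 0.80 ± 0.18 (adjusted p from 0.00875 to 0.0214). The call for ATG8F held in 8 of the 12 fits that left out an array. Of 10 measured autophagy genes these 2 were called, against 5.03% of all probe sets. In the list 1 gene lay below 0, against 11018 of the 22746 probe sets, and the median was 0.40.

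Among the genes raised in phyb, BCAT4 (AT3G19710, chromosome 3, 6846969 to 6849582), the aminotransferase that opens the chain elongation of methionine for aliphatic glucosinolates, was among the largest departures. It read 2.94, 2.85 and 2.77 in Col-0, 3.27, 2.65 and 2.82 in sco3, 6.86, 6.10 and 6.75 in phyb, and 3.55, 3.43 and 3.35 in sco3phyb. Adding the single mutants would have put sco3phyb at 6.64, more than 3 log2 units above where it was found (interaction -3.20 ± 0.27, adjusted p = 4.84e-05). All 4 measured glucosinolate genes lay below 0, and BCAT4 was the 1 called. The gene lies near SCO3, which the annotation places on chromosome 3 from 6797471 to 6801835, and whether that position has a part in the result was not tested. AT3G26960 was also highest in phyb, at 6.13 ± 0.34 in phyb and between 3.09 and 3.48 in the means of the other genotypes (interaction -2.71 ± 0.44, adjusted p = 0.00374).

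Of the 8 measured flavonoid genes, 4 rose in phyb and 0 fell, where 17.6% of all probe sets rose and 15.9% fell, while the median difference of sco3phyb from Col-0 over the list was 0.02. UGT78D1 (AT1G30530, chromosome 1, 10814612 to 10816615), which attaches rhamnose to flavonols, read 5.94, 5.56 and 5.28 in Col-0, 5.83, 5.53 and 5.44 in sco3, 7.56, 7.34 and 7.51 in phyb, and 5.59, 5.71 and 5.67 in sco3phyb. The phyb arrays lay above all others, which overlapped (interaction -1.82 ± 0.22, adjusted p = 5.29e-04). UGT78D2 (AT5G17050), which attaches glucose to flavonols and anthocyanidins, was 6.24 ± 0.21 in Col-0 and close to 7 or above in the mutants, at 6.97 ± 0.11 in sco3, 7.46 ± 0.13 in phyb and 6.92 ± 0.27 in sco3phyb (SD, n = 3). Its interaction was -1.28 ± 0.21 (adjusted p = 0.00448). DFR, a reductase of anthocyanin synthesis, and AT4G14090 had interactions of -1.18 ± 0.36 and -1.16 ± 0.34 and were not called (adjusted p from 0.0733 to 0.0864). By the interaction 2 of the 8 were called, against 5.03% of all probe sets, 7 lay below 0, and the median was -0.97.

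Of the genes for cell wall growth, 6 departed downwards. Expansins loosen cell walls, and xyloglucan endotransglucosylases cut and rejoin xyloglucan between cellulose fibres. EXPB1 (AT2G20750, chromosome 2, 8940833 to 8942706) read 3.86, 3.86 and 3.85 in Col-0, 3.80, 3.65 and 4.28 in sco3, 5.90, 6.43 and 6.27 in phyb, and 4.47, 4.83 and 4.64 in sco3phyb. In sco3phyb it lay above Col-0 and sco3 and below phyb without overlap, so part of the phyb rise was left (interaction -1.60 ± 0.24, adjusted p = 0.00229). EXPA4 (AT2G39700) was 5.60 ± 0.55, 6.39 ± 0.21, 6.59 ± 0.14 and 5.70 ± 0.22 in Col-0, sco3, phyb and sco3phyb (SD, n = 3; interaction -1.68 ± 0.32, adjusted p = 0.00945). XTH32 (AT2G36870) rose by 2.25 in phyb and had an interaction of -1.41 ± 0.34 (adjusted p = 0.0318), which was called in 3 of the 12 fits that left out an array (adjusted p up to 0.0774). Of the 27 measured genes of these families, 6 were called below 0 and 0 above (22.2% against 5.03% of all probe sets). Their median interaction was 0.06 and 12 of the 27 lay below 0, so the interactions of the families as a whole were not shifted downwards. Departures short of a call are not excluded, since 10 of the 27 had an unadjusted p under 0.05 (limma), against 4421 of the 22746 probe sets. phyb alone had raised 9 of the 27 and lowered 5, against 17.6% and 15.9% of all probe sets. From phyb to sco3phyb 0 of the 27 rose and 11 fell, against 7.76% and 7.18%.

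**Figure D3:**
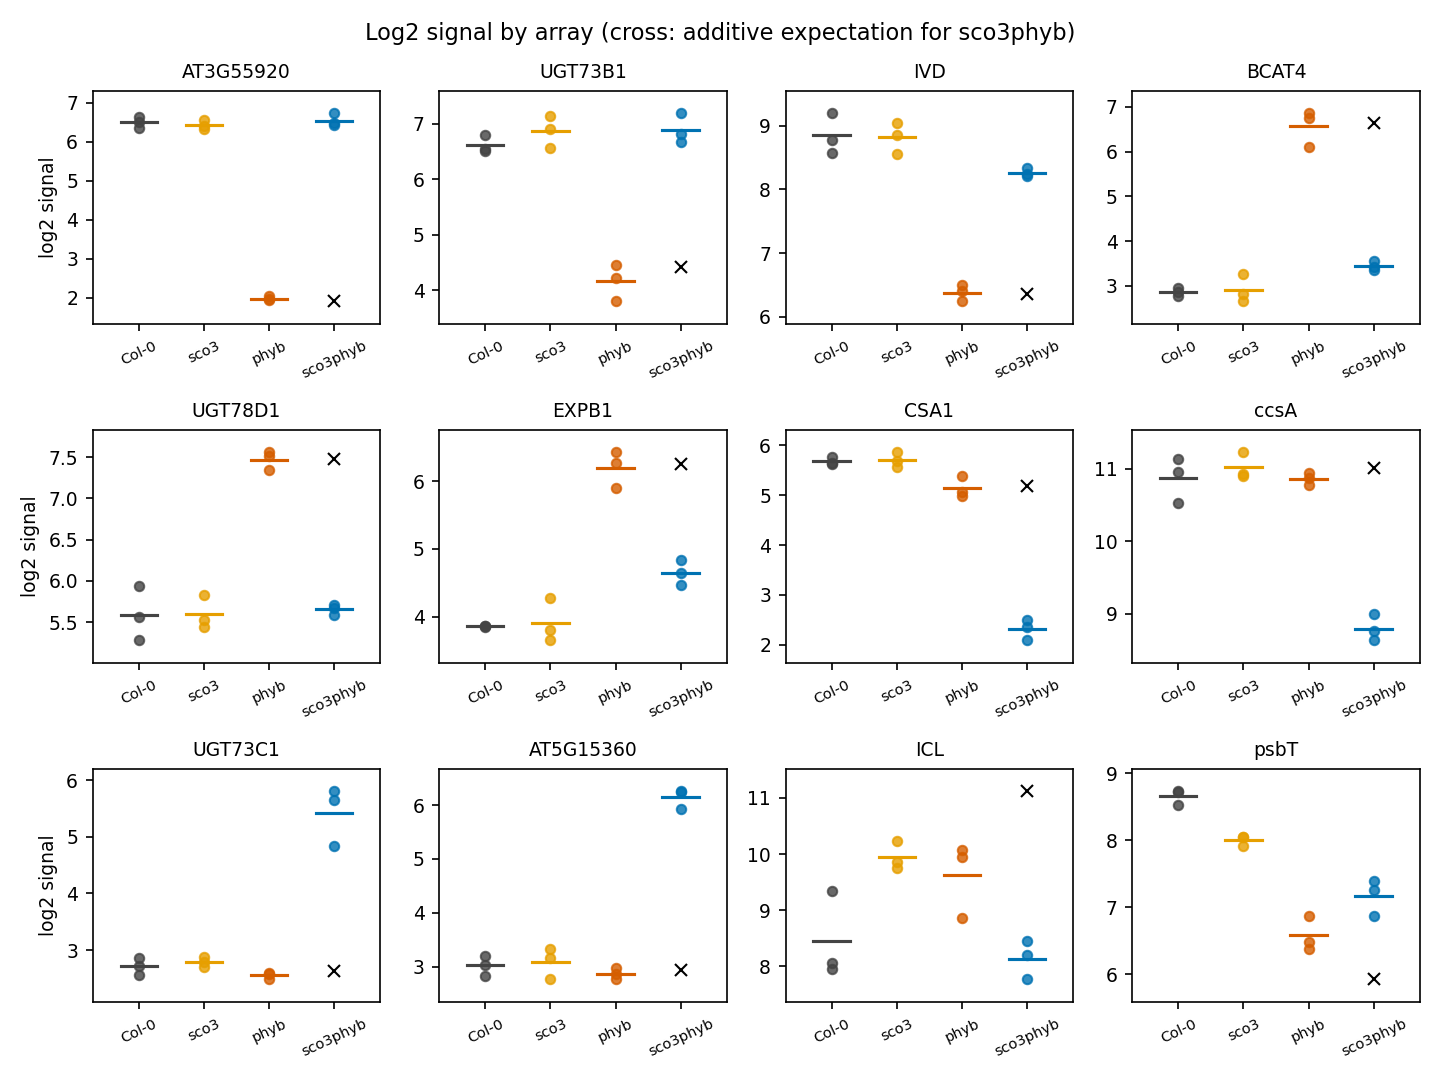
Log2 signal (vertical axis) of 12 genes on each array, by genotype, with bars at the means of 3 arrays and a cross at the level that adding the single mutants gives for sco3phyb. The phyb mean lies farthest from the other 3 for AT3G55920, UGT73B1, IVD, BCAT4, UGT78D1 and EXPB1, the sco3phyb mean for CSA1, ccsA, UGT73C1 and AT5G15360, and for ICL and psbT sco3 moved the level one way alone and the other way in phyb.

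The double mutant was the outlying genotype in 318 probe sets, 191 higher and 127 lower than the other 3. The largest interaction of all belonged to a probe set without a gene name, 263174_at. It read 4.16, 4.13 and 3.55 in Col-0, 3.57, 2.88 and 2.75 in sco3, 5.09, 4.34 and 4.39 in phyb, and 9.83, 9.80 and 9.89 in sco3phyb. No array of another genotype came near the sco3phyb values (interaction 6.11 ± 0.34, adjusted p = 1.95e-06). A second unnamed probe set, 249775_at, was at 8.07 ± 0.14 in sco3phyb and between 4.03 and 4.81 in the other means (SD, n = 3; interaction 4.68 ± 0.58, adjusted p = 5.93e-04).

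Of the named genes, AT5G15360 (chromosome 5, 4987437 to 4989182) read 3.02, 3.20 and 2.83 in Col-0, 3.32, 2.77 and 3.15 in sco3, 2.76, 2.97 and 2.86 in phyb, and 6.26, 6.24 and 5.93 in sco3phyb. The first 3 genotypes overlapped throughout (interaction 3.22 ± 0.22, adjusted p = 7.02e-06). AT1G50290 rose in sco3phyb alone, to 8.06 ± 0.22 from means between 4.95 and 5.33 (SD, n = 3; interaction 3.12 ± 0.25, adjusted p = 2.76e-05). AT5G24240 (chromosome 5, 8230916 to 8234150) did so from means between 2.63 and 2.99 to 5.26 ± 0.36 (SD, n = 3; interaction 2.58 ± 0.21, adjusted p = 3.06e-05). AT5G61820, also on chromosome 5, was 11.18 ± 0.23 in sco3phyb against 9.83 ± 0.51 in Col-0 and 8.90 ± 0.68 in phyb (SD, n = 3; interaction 2.56 ± 0.43, adjusted p = 0.00439).

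Enzymes that conjugate small molecules were among the genes raised in sco3phyb. UGT73C1 (AT2G36750, chromosome 2, 15410376 to 15412064), a glucosyltransferase that acts on cytokinins in vitro, read 2.71, 2.86 and 2.56 in Col-0, 2.88, 2.79 and 2.70 in sco3, 2.57, 2.48 and 2.60 in phyb, and 5.81, 4.84 and 5.66 in sco3phyb. UGT84A3 (AT4G15490), which glucosylates phenylpropanoid acids, read 3.09, 2.95 and 2.77 in Col-0, 3.21, 3.33 and 3.89 in sco3, 4.03, 4.87 and 4.99 in phyb, and 7.48, 7.42 and 7.46 in sco3phyb. UGT73C1 was raised in the double mutant alone, whereas UGT84A3 had risen in phyb and rose further in sco3phyb. The interactions were 2.80 ± 0.28 and 2.29 ± 0.32 (adjusted p from 1.28e-04 to 0.00147). GSTU23 (AT1G78320), a glutathione transferase, was 4.08 ± 0.14 in sco3phyb and between 2.41 and 2.79 in the other means (SD, n = 3; interaction 1.36 ± 0.18, adjusted p = 8.81e-04). It was the 1 called among 13 glutathione transferases, whose median was -0.07. Of the 47 measured UDP-glycosyltransferases, 5 were called above 0 and 2 below, UGT73B1 and the UGT78D genes included (14.9% against 5.03% of all probe sets), and the median was 0.12. Called members thus went both ways. Over all 47, called or not, phyb was the farthest genotype in 15 and sco3phyb in 13, against 32.4% and 19.9% of all probe sets.

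Among the genes that were low in sco3phyb, CSA1 (AT5G17880, chromosome 5, 5908834 to 5913317) encodes a disease resistance receptor that has also been tied to shade avoidance. It read 5.63, 5.77 and 5.64 in Col-0, 5.69, 5.57 and 5.86 in sco3, 5.39, 5.06 and 4.98 in phyb, and 2.49, 2.09 and 2.35 in sco3phyb. Its level in phyb was already below Col-0, by a log2 difference of -0.53 (limma, adjusted p = 0.00938). The sco3phyb values were lower still, all under 2.62 (interaction -2.87 ± 0.19, adjusted p = 7.02e-06). AT5G45500 (chromosome 5, 18432446 to 18435524) read 7.13, 7.13 and 7.56 in Col-0, 6.51, 6.84 and 6.96 in sco3, 7.34, 7.33 and 7.03 in phyb, and 3.90, 3.58 and 4.21 in sco3phyb. It was low in sco3phyb alone (interaction -2.84 ± 0.26, adjusted p = 6.57e-05).

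AT5G23830 (chromosome 5, 8033665 to 8034977) read 6.41, 6.65 and 7.45 in Col-0, 5.74, 5.45 and 5.06 in sco3, 7.18, 7.76 and 7.60 in phyb, and 2.55, 2.38 and 2.61 in sco3phyb. In sco3 it fell by 1.42 on the log2 scale, and adding the sco3 mutation to phyb took it from 7.51 ± 0.30 to 2.51 ± 0.12 (SD, n = 3). All sco3phyb arrays lay below all others (interaction -3.58 ± 0.35, adjusted p = 1.14e-04). AT1G69550 was 2.01 ± 0.22 in sco3phyb and between 3.84 and 4.44 in the other means (SD, n = 3; interaction -2.72 ± 0.35, adjusted p = 7.36e-04). The unnamed probe set 250476_at was 3.26 ± 0.15 in sco3phyb and between 5.54 and 6.22 in the other means (SD, n = 3; interaction -3.42 ± 0.18, adjusted p = 1.61e-06). Few members of this group were that dim, since 10 of the 127 probe sets low in sco3phyb had a mean there below 2.62, the lowest lower quartile of the 12 arrays.

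CP1 (AT4G36880), a papain-type cysteine protease, had the largest negative interaction among the named genes, -5.05 ± 0.75 (adjusted p = 0.00212). It read 5.67, 5.41 and 8.17 in Col-0, 7.59, 7.33 and 7.86 in sco3, 8.30, 8.85 and 8.71 in phyb, and 4.39, 4.75 and 5.12 in sco3phyb. The sco3phyb arrays were the lowest, but Col-0 replicate 3 stood more than 2 log2 units above its group. The call held when any 1 array was left out (interaction from -5.93 to -4.54, adjusted p up to 0.00875). AT2G47780 was raised in phyb, to 6.58 ± 0.60, and stood in sco3phyb at 3.61 ± 0.58, the level of Col-0 (3.62 ± 0.34; SD, n = 3). In sco3 it was 5.02 ± 0.65, above all Col-0 arrays without a call (adjusted p = 0.0503), and its interaction was -4.37 ± 0.53 (adjusted p = 5.17e-04).

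Called genes with sco3phyb farthest were unevenly spread over the chromosomes. Chromosome 5 holds 22.4% of the 13333 measured genes with a name and a position in TAIR10.1. It held 39 of 75 named genes that were low in sco3phyb (52.0%) and 41 of 96 that were high (42.7%), together 80 of 171 (46.8%). Of the genes with phyb farthest, 72 of 309 lay there (23.3%). The same excess is visible in the share of genes called by the interaction, 6.08% on chromosome 5 against 4.81%, 3.40%, 3.70% and 3.41% on chromosomes 1 to 4 and 5.80% of the plastid genes (4 of 69).

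The 80 genes were not gathered in one block. They spanned chromosome 5 from 26848 to 26421642, and when each chromosome was cut into stretches of 100 consecutive measured genes, 26 of the 29 stretches of chromosome 5 held at least 1 gene with sco3phyb farthest, against 74 of 130 in all. No stretch held more than 7. Of the 80, 61 had the other 3 genotypes close together, 44 were called in every fit, and 4 had a sco3phyb mean below 2.62. The share on chromosome 5 was also taken in the 6 alternatives to the model, the normalization or the filter and with any 1 array left out. For sco3phyb it then lay between 39.8% and 46.2%, below the share in the main fit. For phyb it lay between 21.9% and 27.6%. The share was not computed for the 2-fold minimum or the linear scale. PHYB lies on chromosome 2 and SCO3 on chromosome 3, so neither mutated gene is on chromosome 5. In the pairwise comparison of sco3 with Col-0, 4.41% of the chromosome 5 genes were called against 6.70% of those of chromosome 3. No test was made of these shares. Genotype at other loci was not measured, and a background difference carried by the sco3phyb line cannot be told apart from an effect of combining the mutations.

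**Figure D4:**
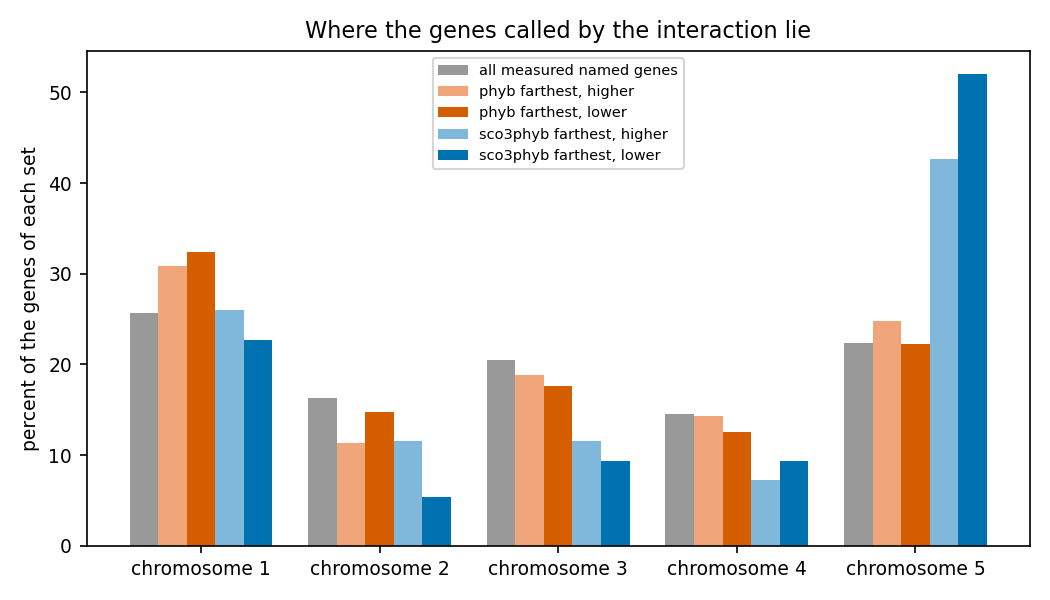
Percent of the genes of each set (vertical axis) that lie on chromosomes 1 to 5, for all measured named genes and for genes called by the interaction with phyb or sco3phyb farthest, higher or lower than the other genotypes. Chromosome 5 holds 22.4% of all measured genes, 42.7% and 52.0% of those high and low in sco3phyb, and 24.8% and 22.2% of those high and low in phyb.

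In 59 probe sets sco3 stood apart, so that a sco3 effect called with PHYB intact was not called in the phyb background. AT3G44070 read 3.27, 3.53 and 2.98 in Col-0, 4.58, 4.58 and 4.86 in sco3, 3.02, 3.04 and 2.72 in phyb, and 3.40, 2.67 and 2.97 in sco3phyb. Only the sco3 arrays were raised (interaction -1.33 ± 0.27, adjusted p = 0.0131). AT1G12070 and AT1G33790 had the same shape, with interactions of -1.73 ± 0.23 and -1.50 ± 0.28 (adjusted p from 0.00109 to 0.00806). AT1G52060 had the reverse one, at 5.57 ± 0.34 in sco3 and between 6.67 and 6.98 in the other means (SD, n = 3; interaction 1.46 ± 0.26, adjusted p = 0.00703). IAA20 (AT2G46990), an Aux/IAA repressor of auxin signalling, was 3.74 ± 0.12 in sco3 and between 2.91 and 3.24 in the other means (SD, n = 3; interaction -0.76 ± 0.15, adjusted p = 0.0125). It was the 1 called among 13 early auxin genes, whose median was 0.10.

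In 52 probe sets Col-0 stood apart by the pairwise calls, both single mutants being called against Col-0 and sco3phyb against neither of them. The rule sets no condition on the comparison of sco3phyb with Col-0. AT2G36885 read 7.52, 7.08 and 6.61 in Col-0, 8.61, 8.50 and 8.18 in sco3, 8.26, 8.44 and 8.30 in phyb, and 8.41, 8.39 and 8.17 in sco3phyb. All mutant arrays lay above all Col-0 arrays (interaction -1.37 ± 0.27, adjusted p = 0.0121). AT1G15290, AT3G21300 and AT5G23760 were of this class too, with interactions from -1.11 to -0.82 (adjusted p from 0.0147 to 0.0172). In AT5G23760 the sco3phyb mean of 6.19 lay between Col-0 at 5.87 and the single mutants at 6.42 and 6.46. It was not called against Col-0 (limma, adjusted p = 0.0592). The class numbered between 24 and 97 when 1 array was left out: 97 and 88 without Col-0 replicates 1 and 2, and 24, 25 and 26 without sco3 replicate 2, phyb replicate 3 and sco3 replicate 1.

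The sco3 mutation had called effects of opposite sign with and without PHYB in 33 of the 49 interaction probe sets where it was called in both backgrounds. The phyb mutation had them in 95 of 377. These probe sets were kept because the difference between the same effects was called, which favours opposite signs. No count over all probe sets called in both backgrounds is given here, so nothing is read from these counts. ICL (AT3G21720, chromosome 3, 7652487 to 7656053), the isocitrate lyase that turns stored fat into sugar precursors in seedlings, read 7.96, 8.07 and 9.35 in Col-0, 9.85, 9.76 and 10.24 in sco3, 8.87, 9.94 and 10.07 in phyb, and 7.77, 8.21 and 8.46 in sco3phyb. It was higher in both single mutants than in Col-0 on average, while sco3phyb overlapped with Col-0 and lay below both single mutants (interaction -2.98 ± 0.52, adjusted p = 0.006). AT2G29670 went the other way. It fell by 1.18 in sco3 on the log2 scale and rose by 1.32 from phyb to sco3phyb (interaction 2.50 ± 0.41, adjusted p = 0.00406).

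Gene lists were read by counts, without a test of the list. The 45 lists had measured members in 40, and the 356 genes in them included 37 called ones (10.4% against 5.03% of all probe sets). The lists were chosen with results of these data known, so nothing is read from this share. Counts called in each list stand against 5.03% of all probe sets (2.65% above 0 and 2.38% below), and counts below 0 against 11018 of 22746. Calls rose with signal, and lists were not matched for signal to the probe sets they stand against.

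**Figure D5:**
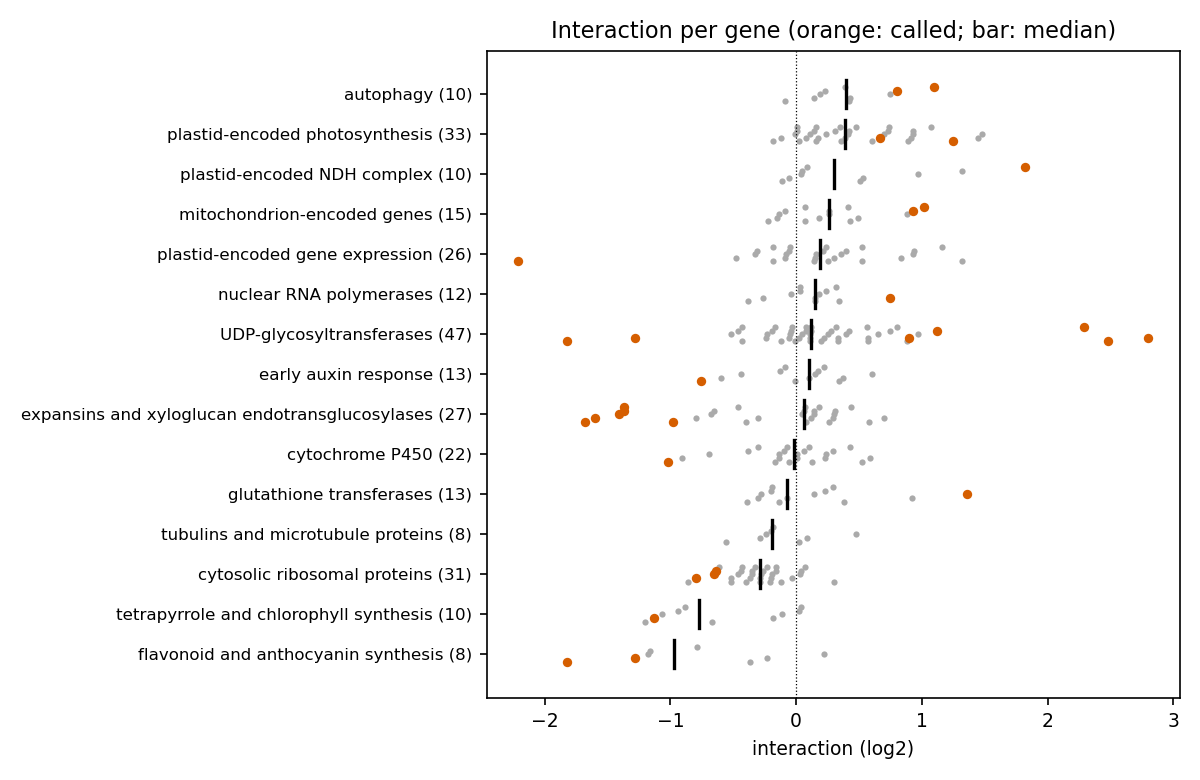
Interaction (horizontal axis, log2) of each measured gene of 15 lists, with the number of genes in brackets, called genes in orange and the median of each list as a black bar. Medians run from -0.97 for flavonoid synthesis to 0.40 for autophagy, and the 6 called expansin and xyloglucan genes are the lowest values of their list.

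The chloroplast has its own genome, which encodes core parts of the photosystems. Of 33 plastid-encoded photosynthesis genes, 2 were called above 0 and 0 below, a share (6.06%) near the 5.03% of all probe sets. Of the 33, 3 had an interaction below 0, and the median was 0.39. In phyb 25 of the 33 were lower than in Col-0 and 0 higher, against 15.9% and 17.6% of all probe sets. From phyb to sco3phyb 6 rose and 2 fell, against 7.76% and 7.18%. psbT, a small subunit of photosystem II, read 8.73, 8.53 and 8.72 in Col-0, 8.05, 8.05 and 7.91 in sco3, 6.87, 6.48 and 6.38 in phyb, and 7.25, 6.86 and 7.39 in sco3phyb. It fell in sco3 by 0.65 on the log2 scale and rose by 0.59 when the same mutation was added to phyb (interaction 1.25 ± 0.22, adjusted p = 0.00625). psbZ, another subunit of photosystem II, was 10.96 ± 0.14 in phyb and 11.44 ± 0.11 in sco3phyb (SD, n = 3; interaction 0.67 ± 0.17, adjusted p = 0.0409). Its call held in 3 of the 12 fits that left out an array and was lost when each array was centred on its median (adjusted p = 0.058). The transcripts of petL and petG, small subunits of the cytochrome b6f complex, had larger interactions with wider errors, 1.48 ± 0.45 and 1.45 ± 0.41, and were not called (adjusted p from 0.0635 to 0.0815). In whole seedlings fewer cells of a type and less RNA per cell cannot be told apart.

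Of the 10 measured plastid genes of the NDH complex, which carries electrons around photosystem I, ndhK was called. It was 8.36 ± 0.35 in Col-0, 7.52 ± 0.57 in sco3, 7.89 ± 0.54 in phyb and 8.87 ± 0.35 in sco3phyb (SD, n = 3; interaction 1.82 ± 0.44, adjusted p = 0.0338). The call held in 4 of the 12 fits that left out an array. Among 26 plastid genes of gene expression and other housekeeping, 1 was called, and it lay below 0. ccsA, needed to attach haem to plastid cytochromes c, read 10.95, 11.13 and 10.53 in Col-0, 11.23, 10.90 and 10.93 in sco3, 10.94, 10.77 and 10.87 in phyb, and 8.99, 8.63 and 8.76 in sco3phyb. It was low in the double mutant alone (interaction -2.21 ± 0.22, adjusted p = 1.28e-04), while the median of the list was 0.19.

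Several lists of nuclear genes for the chloroplast lay below 0. Of 10 genes of tetrapyrrole and chlorophyll synthesis, 8 lay below 0, the median was -0.77 and 1 was called. GSA1 (AT5G63570), which makes the precursor 5-aminolevulinate, read 7.04, 6.71 and 6.45 in Col-0, 7.58, 7.56 and 7.50 in sco3, 7.21, 7.32 and 7.46 in phyb, and 6.84, 7.21 and 6.99 in sco3phyb. Both single mutants lay above Col-0 without overlap, and sco3phyb overlapped with Col-0 (interaction -1.13 ± 0.21, adjusted p = 0.00782). HEME2, HEME1, CHLI2, PORB and HEMB1 of the same pathway had interactions between -1.20 and -0.67 without a call (adjusted p from 0.0583 to 0.0938). All 6 plastid ribosomal protein genes (median -0.28) and all 6 genes of chloroplast assembly (median -0.58) were below 0 and none was called. Of 6 nuclear photosystem genes and 3 antenna genes none was called, with medians of 0.07 and -0.14. In the Calvin cycle list AT1G56190 was called as 1 of 4 (interaction -1.30 ± 0.25, adjusted p = 0.0114). Of the mitochondrion-encoded list 2 of 15 were called above 0: ccb452, for cytochrome c assembly, with 1.02 ± 0.26, and nad1, a subunit of complex I, with 0.93 ± 0.24 (adjusted p from 0.0433 to 0.0437). Their calls held in 3 and 2 of the 12 fits that left out an array. With each array centred on its median both were lost (adjusted p = 0.0538 and 0.0526), and nad1 was lost with a variance trend as well (0.0517). A copy of the mitochondrial genome in nuclear chromosome 2 can share the probes.

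In light and growth signalling, 2 of the 5 genes listed as shade-induced were called below 0: CSA1, and FHL (AT5G02200), which brings phytochrome A into the nucleus. CSA1 was not raised in phyb but lower than in Col-0, by a log2 difference of -0.53, so the name of the list does not describe it here. FHL read 3.09, 2.84 and 3.10 in Col-0, 2.92, 3.60 and 3.17 in sco3, 4.54, 3.58 and 3.74 in phyb, and 2.96, 2.59 and 2.88 in sco3phyb. The phyb arrays were high and overlapped with sco3 (interaction -1.36 ± 0.33, adjusted p = 0.0315, called in 6 of the 12 fits that left out an array and not after quantile normalization, where adjusted p = 0.0558). The shade genes HAT2, IAA29 and YUC2 had interactions between 0.17 and 0.45 and were not called. Of 8 tubulins and microtubule proteins, 6 were higher in phyb than in Col-0 (17.6% of all probe sets) and 6 lower in sco3phyb than in phyb (7.18%). The interaction was called for 0 of the 8 (5.03% of all probe sets), with a median of -0.19.

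Of 31 cytosolic ribosomal protein genes, 3 were called below 0 (9.68%, against 2.38% of all probe sets) and 0 above. Of the 31, 27 lay below 0, against 11018 of the 22746, and the median was -0.29. AT5G67510 was 8.49 ± 0.11 in Col-0, 8.76 ± 0.07 in sco3, 9.15 ± 0.13 in phyb and 8.62 ± 0.02 in sco3phyb (SD, n = 3; interaction -0.80 ± 0.15, adjusted p = 0.00719). AT5G61170 was highest in phyb as well, and AT5G02450 was lowest in sco3phyb, with interactions of -0.65 ± 0.15 and -0.64 ± 0.15 (adjusted p from 0.0225 to 0.023). Their calls held in 8 and 9 of the 12 fits that left out an array. NRPB7 (AT5G59180), a subunit of RNA polymerase II, was the 1 called of 12 nuclear RNA polymerase genes, at 6.38 ± 0.12 in sco3phyb and between 5.27 and 5.63 in the other means (SD, n = 3; interaction 0.75 ± 0.19, adjusted p = 0.0404, called in 2 of the 12 fits that left out an array and not with the replicate block, where adjusted p = 0.0579).

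Single called members stood for other lists. M17 (AT2G41260), a seed maturation gene, was 5.30 ± 1.05 in phyb and between 2.47 and 3.02 in the other means (SD, n = 3; interaction -2.47 ± 0.62, adjusted p = 0.0376), and its call held in 4 of the 12 fits that left out an array. It was lost with the replicate block (adjusted p = 0.064) and with a variance trend and robust fitting (0.0568). CYP71B37, of 22 cytochrome P450 genes, was 4.20 ± 0.33 in phyb and between 3.11 and 3.19 in the other means (SD, n = 3; interaction -1.02 ± 0.23, adjusted p = 0.0226, called in 8 of those 12 fits). COR15A, a cold-induced gene, had an interaction of -2.68 ± 0.88 that was not called (adjusted p = 0.106). No member was called among 6 WRKY factors, 4 genes of photorespiration, 4 of cold and ABA response, 3 of jasmonate response and 3 of the clock.

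Markers of single cell types could be followed for 2 types. The root hair genes EXPA7 and EXPA18 had interactions of 0.07 ± 0.52 and 0.06 ± 0.54, and the guard cell genes FMA, SPCH and MUTE had 0.66 ± 0.25, 0.11 ± 0.27 and 0.00 ± 0.18, none called. The lists for phloem, xylem, epidermis, mesophyll and seed had no measured member with a name.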

How the data were processed

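RNA of whole seedlings was measured on Affymetrix ATH1 arrays. The authors deposited log2 expression per probe set. The tools named, per the submitters' processing notes, are RMA and Partek, with versions and settings not given in the sources used here. RMA gives no detection call, so how far low signals lie above background is not known. Values were used as deposited, and the number of arrays limits precision. Array medians lay between 4.53 and 4.74.

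Groups follow the sample titles. One limma 3.58.1 model (R 4.3.3, lmFit and eBayes) with a mean per genotype was fitted to 12 arrays, with 8 residual degrees of freedom. P-values are two-sided, with Benjamini-Hochberg adjustment over 22746 probe sets and calls under 0.05. Standard errors are the moderated ones, and SDs are over 3 arrays. By the annotation 13513 probe sets had 1 gene, 503 several and 8730 none, with positions from RefSeq TAIR10.1. The fit was tested on simulated data with independent errors of equal spread on every array. Interactions of 1, 2 and 3, planted in 67, 67 and 66 probe sets, were recovered in 53.7%, 95.5% and 100%, with 11 false of 177 calls. The data gave far more calls, and their arrays differed in spread, so these rates need not hold for them.

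Named genes, 1 probe set each, are the 10 largest interactions in each direction and 4 of each stand-apart class among those called in every fit, and up to 3 called members per list, or the best expressed member; other list members and the unnamed probe sets were picked after their values were seen. Members and lists were chosen with earlier results of these data known. Alternatives were array weights, a variance trend with robust fitting, median centring, quantile normalization, leaving out the dimmest 40%, a replicate block, a 2-fold minimum, the linear scale and each array left out. Promoters were not analysed here.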

Additional observations from a re-analysis of the deposited data

Results flagged for a closer look

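For 4 named genes the sco3 mutation moved the level in opposite directions with and without PHYB, each direction being called (limma, 3 arrays per genotype). These genes were named because their interaction was called, so that call adds nothing to the pattern. ICL rose by 1.49 in sco3 and fell by 1.48 on the log2 scale when sco3 was added to phyb, an interaction of -2.98 ± 0.52. UGT78D2 rose by 0.74 and fell by 0.54 in the same order (-1.28 ± 0.21). psbT fell by 0.65 and then rose by 0.59 (1.25 ± 0.22). AT2G29670 fell by 1.18 and rose by 1.32 (2.50 ± 0.41). Groups of 3 arrays are too small for a test of single outlying values.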

How the results depend on the processing

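The 1143 calls became 1957 with array weights (1064 above 0 and 893 below, 1129 of them among the 1143), 613 with a 2-fold minimum, 1253 without the dimmest 40% of probe sets (989 shared), 1171 with a variance trend and robust fitting (1075 shared), 1151 after quantile normalization (1072 shared) and 1100 after median centring (1069 shared, 48.5% above 0 against 52.7%). With array weights the stand-apart classes numbered 636 for phyb, 401 for sco3phyb and 820 mixed, the departures 949 smaller, 242 larger and 766 opposite, and list members 66 in place of 37; Col-0 replicate 3 had the lowest weight, 0.23. By farthest mean array weights gave 1032 for phyb, 538 for sco3phyb, 209 for sco3 and 178 for Col-0, in place of 599, 318, 117 and 109. Leaving out each array gave 661 to 1582 calls (337 to 863 above 0, 324 to 719 below), with 202 to 464 for phyb, 130 to 324 for sco3phyb, 26 to 71 for sco3, 24 to 97 for Col-0 and 270 to 677 mixed. By farthest mean these ranges were 374 to 814, 198 to 448, 52 to 174 and 37 to 193. Smaller departures numbered 309 to 751, larger 67 to 196 and opposite 285 to 635, and list members called 25 to 58. The cause of these shifts was not tested. Whether the replicate numbers pair the arrays was not settled. Of 18 same-numbered pairs, 3 had correlated deviations above 0.1 (range -0.274 to 0.15), and 6 of 12 arrays correlated best with their own number. The correlations of differently numbered pairs were not set beside these. With the replicate block 1040 were called, 947 shared. Of the 55 named genes called, those lost outside the left-out arrays were M17 (adjusted p = 0.0568 with trend and robust fitting, 0.064 with the block), FHL (0.0558, quantile), psbZ (0.058, centred), NRPB7 (0.0579, block), nad1 (0.0526 centred, 0.0517 trend) and ccb452 (0.0538, centred). None of these 55 turned in sign. Of the 19 named genes without a call, HCF101, PEX4, WRKY20 and EXPA18 took both signs among the left-out arrays. The planned search for promoter motifs was not run.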
